A study of Mus musculus with 47 samples.

Results

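Among the 17078 genes of the expression table, 10 genes used to mark stem and progenitor cells of the mammary epithelium were followed across the reproductive cycle of the mouse. They were *Kit*, *Prom1*, *Procr*, *Bcl11b*, *Bcl11a*, *Tspan8*, *Ly6a*, *Cd24a*, *Cd44* and *Epcam*, chosen by name, and all 10 had a row in the table. RNA was measured by RNA-seq in luminal (CD24+CD29lo) and basal (CD24+CD29hi) epithelial cells sorted by FACS from FVB/N females with no transgene. The 8 time points were never-pregnant mice at 10 weeks (W10) and at 4 months (M4), day 3.5 of pregnancy (P3.5) and day 14.5 of it (P14.5), day 3 (L3) and day 10 (L10) of lactation, day 2 of involution after forced weaning (Id2), and week 4 of involution (Iw4), when the glands are parous and close in age to M4. There were 24 luminal and 22 basal libraries, 3 for each time point and cell type except basal P14.5 and basal L10 with 2 each. Every sort pooled the glands of 4 mice, and the luminal and basal libraries of a replicate came from the same sort. A library held between 4398806 and 20023054 reads assigned to genes (median 8518616). Levels are in CPM, the read count of a gene scaled by the authors for library depth and a further factor of each library. The levels of a library summed to between 675541 CPM (luminal Iw4 replicate 6) and 2.91e+06 CPM (luminal L3 replicate 6). Scaling was thus not for depth alone. The 3 reads taken as the smallest level that can be measured were worth 0.170 to 1.05 CPM depending on the library. That floor covers counting error only.

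The mammary epithelium has an inner luminal layer, which makes milk, and an outer basal layer, which contracts to eject it. Transplantation and lineage tracing place cells that can rebuild the gland in the basal layer and cells committed to the milk-secreting or the hormone-sensing fate in the luminal layer. The proteins encoded by 8 of the genes sit at the cell surface, which is why they serve in sorting. KIT is the receptor for stem cell factor, PROM1 (CD133) is a protein of membrane protrusions, PROCR is the endothelial protein C receptor, TSPAN8 is a tetraspanin, and LY6A (Sca-1) is a GPI-anchored protein. CD24 is a glycosylated GPI-anchored protein, CD44 is the hyaluronan receptor, and EPCAM is an adhesion molecule of epithelia. BCL11A and BCL11B are not surface proteins but related zinc-finger transcription factors of the nucleus. Because CD24 was one of the proteins used for the sort, the level of *Cd24a* is not independent of the gate.

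Levels of different genes can be set side by side only per length, and per kilobase of annotated exon *Cd24a* and *Epcam* had the highest mean levels of the 10 genes in luminal cells, at 534 and 506 CPM per kb. *Ly6a* followed with 168 and *Kit* with 30.3, and *Bcl11b* was lowest with 0.201 CPM per kb. In basal cells the order was *Cd24a* (123 CPM per kb), *Procr* (102), *Epcam* (90.6) and *Ly6a* (87.4), and *Bcl11a* was lowest (0.728). These are means of all libraries of a cell type. The basal place of *Ly6a* rests on Id2, since without Id2 its basal mean was 32.7 CPM per kb, below *Cd44* (49.2). The place of *Procr* rests on P14.5 to Id2: at W10 its basal level was 8.29 CPM per kb, below *Cd24a* (157), *Epcam* (145), *Cd44* (47.9), *Ly6a* (27.4) and *Tspan8* (12.4). Some reads cannot be placed with certainty. Of the 50-base stretches of *Ly6a* transcripts, 19.0% also occur in transcripts of other genes, on either strand. Of the exon bases of *Prom1*, 5.91% overlap a gene on the opposite strand. The counting is not stated to use strand, so reads of *Prom1* and its neighbour cannot be told apart there.

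The plot of all libraries shows the levels of the 10 genes.

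**Figure D1:**
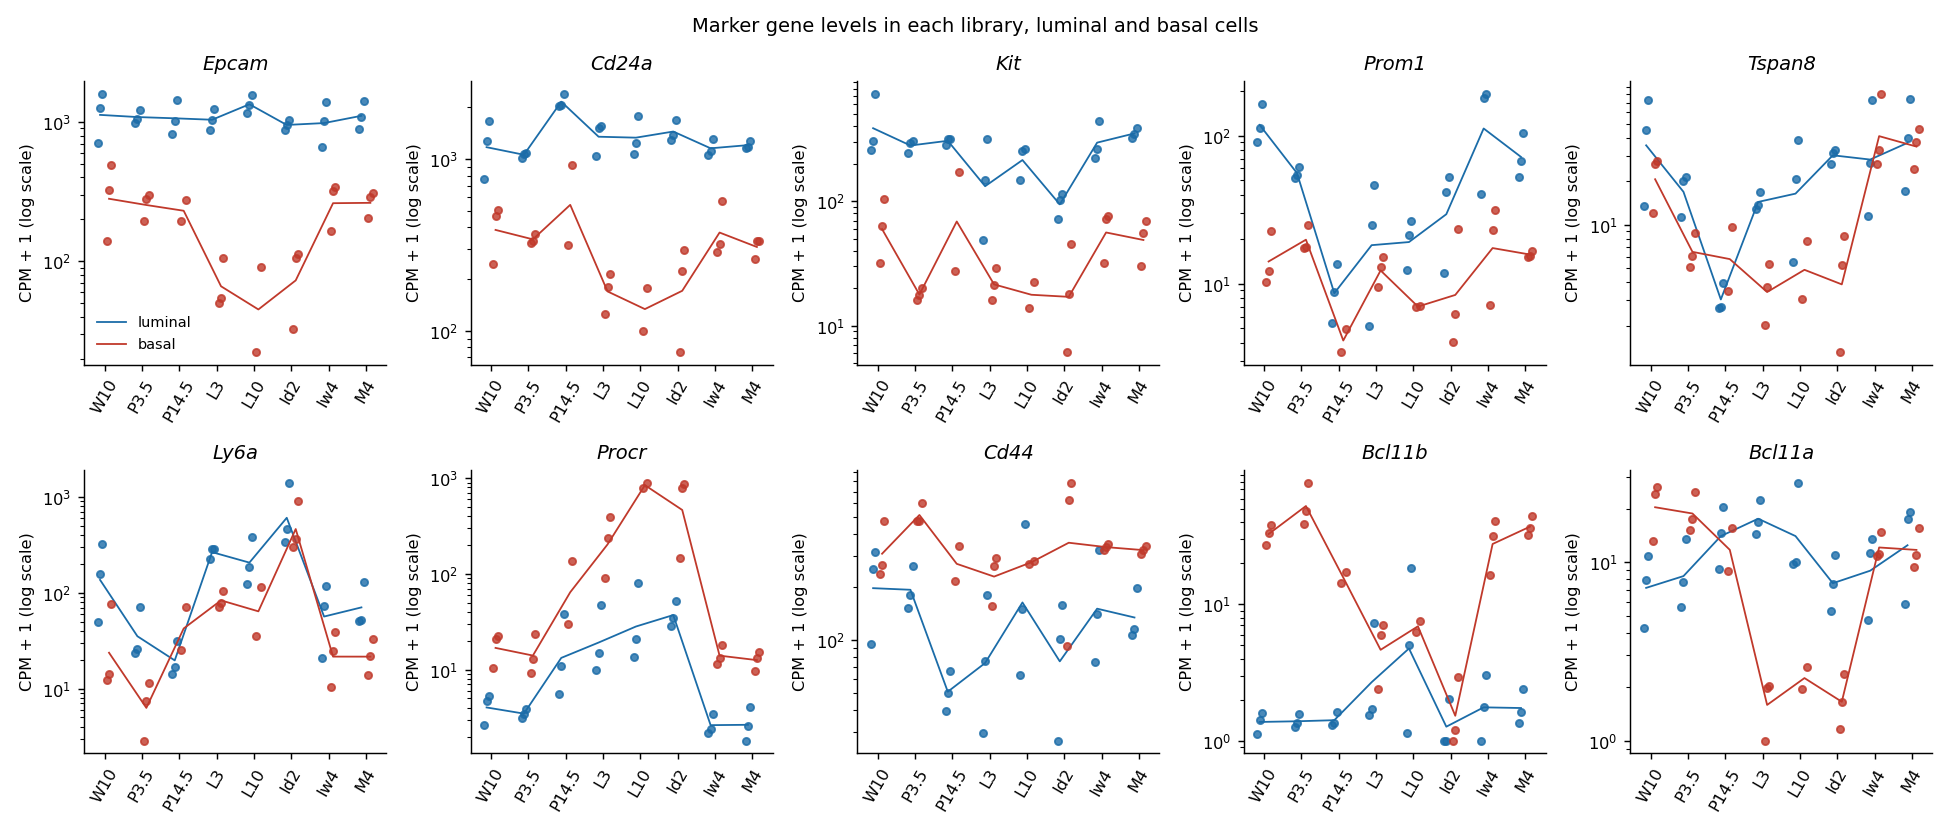
Level of each gene in every library, as CPM + 1 on a log scale (y axis), at the 8 time points (x axis) in luminal (blue) and basal (red) cells. Points are libraries and lines join the means on the log scale. *Epcam* and *Cd24a* stayed apart between the cell types at all 8 time points, *Procr* rose towards 898 CPM in basal cells at L10, and *Bcl11b* and *Bcl11a* in basal cells came down to a few CPM or less at lactation and Id2.

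The sequences just upstream of a RefSeq transcript start are shown for *Procr*, whose basal level rose at lactation, and for *Bcl11a*, *Bcl11b* and *Epcam*, whose change at lactation differed between the cell types, as context for the levels below. Of the 10 genes, 8 had an entry in the RefSeq promoter table (GRCm38.p6), and *Ly6a* and *Cd24a* had none. Each run is the part of the 250 bases before the start that lies outside every annotated exon, read 5′ to 3′ on the gene's strand. Capitals mark matches, on either strand, to the GAS motif of STAT factors (TTCNNNGAA), to the TATA box (TATAAA), to the CCAAT box or to the GC box of SP factors (GGGCGG).

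*Procr*, chr2:155750967-155751116, plus strand: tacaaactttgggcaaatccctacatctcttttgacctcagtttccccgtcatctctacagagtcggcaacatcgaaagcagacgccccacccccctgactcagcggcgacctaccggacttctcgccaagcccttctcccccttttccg
*Bcl11a*, chr11:24080445-24080669, plus strand: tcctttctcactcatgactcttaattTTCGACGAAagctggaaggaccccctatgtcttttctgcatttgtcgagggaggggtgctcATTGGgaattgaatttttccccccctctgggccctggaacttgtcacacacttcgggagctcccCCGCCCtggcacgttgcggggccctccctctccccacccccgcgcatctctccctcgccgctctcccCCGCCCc
*Bcl11b*, chr12:108003603-108003664, minus strand: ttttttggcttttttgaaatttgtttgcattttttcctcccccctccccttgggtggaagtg
*Epcam*, chr17:87635729-87635978, plus strand: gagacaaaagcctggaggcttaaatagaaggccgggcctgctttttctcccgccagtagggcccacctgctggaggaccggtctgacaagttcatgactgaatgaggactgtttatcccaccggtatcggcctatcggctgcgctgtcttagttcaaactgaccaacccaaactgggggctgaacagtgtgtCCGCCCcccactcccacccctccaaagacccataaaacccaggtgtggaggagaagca

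In the whole 250 bases, *Bcl11a* held 1 match to the GAS motif, 1 to the CCAAT box and 2 to the GC box, *Epcam* held 1 to the GC box, and *Procr* and *Bcl11b* held none of the 4 motifs. Of 32851 promoters of that length, 7.02% held the GAS motif, 12.4% the TATA box, 33.8% the CCAAT box and 32.7% the GC box. A match is a run of letters and was not tested as a binding site. The runs of *Procr*, *Bcl11b* and *Epcam* end at the start of the gene in the GENCODE annotation, while that of *Bcl11a* lies inside the gene, which begins there at position 24078056, ahead of a transcript that starts further in.

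The sorted populations were first checked against their defining genes. The summed level of *Krt5*, *Krt14*, *Trp63*, *Acta2* and *Myh11*, genes of basal cells, was 9734 to 61140 CPM in the 19 basal libraries outside Id2. At Id2 it was 862 CPM in replicate 2, 13980 in replicate 4 and 812 in replicate 6. *Krt5*, a basal keratin, was at 4.68, 156 and 6.95 CPM in those libraries against 779 CPM or more in every other basal library. The basal keratin was thus nearly absent from replicates 2 and 6 of Id2 and low in replicate 4. The basal sum of replicate 4 lay within the range of the other basal libraries, but *Acta2* alone gave 8399 CPM of it. *Krt14* and *Trp63* were at 49.0 and 26.55 CPM in replicate 4, against at least 434 and 457 CPM in every basal library outside Id2. The pericyte gene *Rgs5* was at 6932 CPM in replicate 4, and the part of other cell types in its basal sum was not tested. Fibroblast genes (*Pdgfra*, *Col1a1*, *Col1a2*, *Col3a1*, *Dcn*, *Lum*) summed to 3023, 10160 and 71670 CPM in basal Id2 replicates 2, 4 and 6, most of all *Col1a1*. They summed to 220 to 696 CPM in the basal libraries of W10 and P3.5, but to 11680 and 5943 CPM at P14.5, to 752, 1248 and 5651 CPM at L3, to 1221 and 1570 CPM at L10, to 348, 736 and 2031 CPM at Iw4 and to 254, 631 and 460 CPM at M4. At P14.5 all 6 fibroblast genes were higher in basal than in luminal cells, and 5 of the 6 rose in basal cells from P3.5 to P14.5. The part of fibroblast RNA in the basal levels from P14.5 to Iw4 given below was not tested. Nor was the part of a changed mix of cells in any comparison that uses the basal Id2 libraries. In a further library, basal P14.5 replicate 5, milk protein genes took 5.25% of the reads, against 0.629% in replicate 3. The sample titles number that sort as replicate 5, while its column names carry the number 6. The basal library of P14.5 replicate 2 was set aside by the authors as an outlier and is not analysed here. In RNA of sorted pools, fewer cells of a type and less RNA per cell cannot be told apart.

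Luminal and basal cells were compared first over the mean of the 8 time points. *Epcam*, *Kit*, *Cd24a*, *Prom1* and *Ly6a* were lower in basal cells and *Bcl11b*, *Procr* and *Cd44* were higher. Calls needed a false discovery rate under 0.01 over all genes together with a change of 2-fold or more, which 8 of the 10 genes passed, 3 higher in basal cells and 5 lower. Over all genes 21.0% were called, 13.6% higher in basal cells and 7.35% lower. Log2 fold changes, basal over luminal, on the log2(CPM + 1) scale used throughout, were -2.86 for *Epcam* (SE 0.160, adjusted p = 4.54e-18) and 2.92 for *Bcl11b* (SE 0.222, adjusted p = 3.08e-14). The values were -2.84 for *Kit*, -2.28 for *Cd24a*, -1.79 for *Prom1*, -1.35 for *Ly6a*, 2.87 for *Procr* and 1.44 for *Cd44*. *Bcl11a* (-0.70) and *Tspan8* (-0.95) were under the fold limit. Their adjusted p were 0.000659 and 0.00111, and both were called by edgeR on the recovered reads and with a pseudocount of 0.1, which called 28.5% and 30.3% of all genes.

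At single time points 40 of the 80 comparisons of a gene between the cell types were called, and 50 when the sort was a block in the model. Over all genes 16.9% of such comparisons were called, and 19.2% with the block. By time point the share of all genes called was 14.2% at W10, 11.9% at P3.5, 12.9% at P14.5, 25.8% at L3, 24.7% at L10, 21.6% at Id2, 11.5% at Iw4 and 12.4% at M4. Of the 10 genes, 6, 4, 3, 5, 5, 7, 6 and 4 were called at these time points in the same order. The plot of fold changes by time point gives the values, except that of *Bcl11b* at Id2, where both cell types were near the floor.

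**Figure D2:**
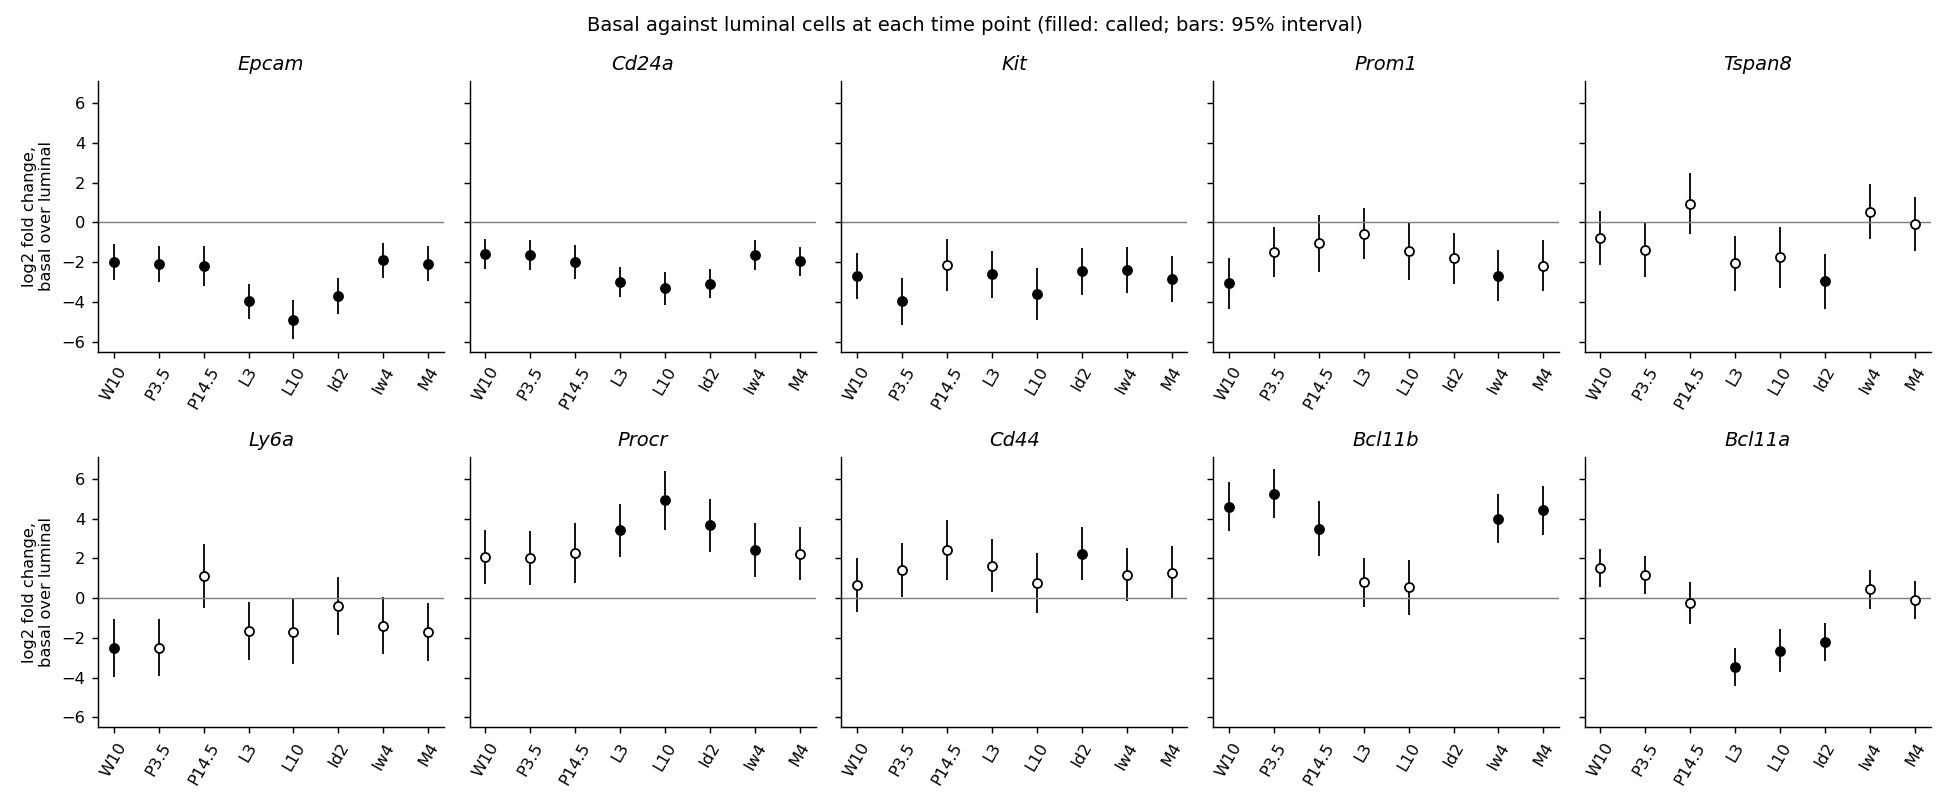
Log2 fold change of basal over luminal cells (y axis) at the 8 time points (x axis), with a panel for each gene and no point for *Bcl11b* at Id2. Filled points were called and bars are 95% intervals from limma. *Bcl11b* went from 5.25 at P3.5 to 0.54 at L10, and *Bcl11a* from 1.50 at W10 to -3.47 at L3.

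*Epcam* was high in luminal cells throughout. It lay between 666 and 1592 CPM in the 24 luminal libraries. In basal cells it was 324, 492 and 138 CPM in the W10 libraries and 309, 288 and 202 CPM at M4. It was 104, 49.5 and 53.5 CPM at L3, 89.8 and 21.4 CPM at L10 and 104, 112 and 31.7 CPM at Id2. The basal libraries of lactation and Id2 all lay below those of the other 5 time points, and the cell types did not overlap at any time point. The ratio of the luminal to the basal mean was 3.74 at W10, 24.3 at L10 and 3.75 at Iw4. *Epcam* was called lower in basal cells at all 8 time points, from a log2 fold change of -1.91 at Iw4 (SE 0.439, adjusted p = 0.00138) to -4.90 at L10 (SE 0.491, adjusted p = 8.12e-10). The value at L10 rests on 2 basal libraries that differ, and it was -3.89 without L10 replicate 6 and -5.80 without replicate 5, called in both fits. Outside lactation and Id2 the calls for *Epcam* were lost without W10 replicate 6 (-1.41), P3.5 replicate 2 (-1.93), P14.5 replicate 3 (-2.14), Iw4 replicate 5 (-1.81) or 6 (-1.86), or M4 replicate 1 (-2.02).

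*Cd24a* was also lower in basal cells at all 8 time points, without overlap between the cell types. The luminal libraries held 762 to 2395 CPM, the highest of them at P14.5 (2395, 2071 and 2028 CPM). The basal libraries held 505, 466 and 244 CPM at W10, 215, 180 and 124 CPM at L3 and 178 and 99.2 CPM at L10. Basal P14.5 replicate 5 stood apart, with 925 CPM of *Cd24a* against 316 CPM in replicate 3. The log2 fold change went from -1.60 at W10 (SE 0.370, adjusted p = 0.00115) to -3.32 at L10 (SE 0.413, adjusted p = 5.35e-08). The calls for *Cd24a* were lost without W10 replicate 6 (-1.02), P3.5 replicate 2 or 6 (-1.59 each), P14.5 replicate 3 (-1.25), and Iw4 replicate 5 (-1.50) or 6 (-1.54), and without P14.5 replicate 5 the value there was -2.81. Without replicate 6 of L10 or of Id2 the values there were -2.69 and -2.37 in place of -3.32 and -3.08, and both were called.

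*Kit* was called lower in basal cells at 7 time points. The luminal libraries of W10 held 259, 303 and 727 CPM and the basal ones 62.3, 104 and 31.0 CPM. At Id2, where the luminal level had its lowest mean, the values were 112, 101 and 71.6 CPM in luminal and 44.0, 16.9 and 5.17 CPM in basal cells. The cell types did not overlap at any of the 8 time points. At P14.5 the log2 fold change was -2.15 (SE 0.647, adjusted p = 0.0137, and 0.00664 with the sort as a block). There the basal values were 26.7 CPM in replicate 3 and 170 CPM in replicate 5, the library with more milk protein reads, and without that sort the log2 fold change was -3.44 (adjusted p = 0.00245). Calls for *Kit* were lost without W10 replicate 6 (-1.79), L3 replicate 4 (-1.77, in place of -2.62, and -3.33 without L3 replicate 6), Id2 replicate 4 (-2.44) or 6 (-1.92), M4 replicate 1 (-2.56), or any 1 of the Iw4 sorts (-2.66, -2.34 and -2.20).

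*Prom1*, *Tspan8* and *Ly6a* were called between the cell types at 2, 1 and 1 of the 8 time points. *Prom1* was 88.8, 111 and 162 CPM in luminal cells at W10 and 11.1, 21.8 and 9.20 CPM in basal cells, a log2 fold change of -3.06 (SE 0.631, adjusted p = 0.000307). It was also called lower in basal cells at Iw4 (-2.68), and the calls were lost without W10 replicate 6 (-2.59), Iw4 replicate 3 (-2.76) or Iw4 replicate 5 (-2.50). It was called as well, with the sort as a block, at Id2 (-1.81, adjusted p = 0.00881) and M4 (-2.19, adjusted p = 0.00277). *Tspan8* was called only at Id2 of the 8 time points, with 30.6, 32.2 and 25.4 CPM in luminal and 7.34, 4.26 and 0.323 CPM in basal cells. Its log2 fold change at Id2 was -2.97 (SE 0.676, adjusted p = 0.000668), and without Id2 replicate 6 it was -2.29 and not called. The basal Id2 libraries held only 4.68, 156 and 6.95 CPM of *Krt5*, and the part of a changed mix of cells in this call was not tested. With the block *Tspan8* was called at L3 too (-2.07, adjusted p = 0.00432). *Ly6a* was called at W10 only (-2.53, SE 0.715, adjusted p = 0.00768), where the cell types overlapped at 48.8 CPM in the lowest luminal and 74.6 CPM in the highest basal library. edgeR did not call it there (adjusted p = 0.0204), leaving out any 1 of the 3 W10 sorts ended the call (-2.89, -2.74 and -1.95), and the block added P3.5 (-2.49, adjusted p = 0.00302).

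*Procr* had a wide range in basal cells. The W10 basal libraries held 19.8, 21.4 and 9.28 CPM, and those of M4 8.65, 14.4 and 12.4 CPM. They held 136 and 29.3 CPM at P14.5, 90.4, 236 and 388 CPM at L3, 795 and 898 CPM at L10 and 869, 782 and 147 CPM at Id2. At Iw4 the values were back at 10.5, 12.2 and 17.0 CPM, so that no basal library from P14.5 to Id2 overlapped with those of W10, P3.5, Iw4 and M4. Luminal cells held less, from 0.818 to 4.27 CPM at those 4 time points and from 4.62 to 79.1 CPM between P14.5 and Id2. *Procr* was called higher in basal cells at L3 (3.41, SE 0.662, adjusted p = 6.95e-05), L10 (4.91), Id2 (3.65) and Iw4 (2.41, adjusted p = 0.00723). With the block it was also called at W10 (2.07, adjusted p = 0.00814), P14.5 (2.28, adjusted p = 0.00755) and M4 (2.24, adjusted p = 0.00463). Without P14.5 replicate 5 the value there was 3.23 without the block (adjusted p = 0.0174). The value of *Procr* at L3 was 2.76 without L3 replicate 6, that at L10 5.75 without L10 replicate 5 and that at Id2 4.29 without Id2 replicate 6, and these were called. The call at Iw4 was lost without any 1 of the 3 Iw4 sorts (2.75, 2.32 and 2.17).

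*Cd44* was higher in basal cells on average but called at a single time point, Id2 (2.24, SE 0.659, adjusted p = 0.00735). There the basal libraries held 91.7, 630 and 786 CPM and the luminal ones 25.9, 158 and 101 CPM, with overlap. Without replicate 4 or without replicate 6 of Id2 the call was lost (2.37 and 1.89). With the block P14.5 was called as well (2.42, adjusted p = 0.00525), where the luminal libraries held 66.2, 38.4 and 48.9 CPM and the basal ones 340 and 216 CPM.

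*Bcl11b* was a basal gene outside lactation and Id2. In basal cells it was 37.5, 32.7 and 26.4 CPM at W10, 77.5, 47.3 and 38.0 CPM at P3.5 and 16.3 and 13.3 CPM at P14.5. It was 6.02, 4.95 and 1.39 CPM at L3, 6.55 and 5.32 CPM at L10, 0, 0.194 and 1.94 CPM at Id2 and 15.5, 30.9 and 39.7 CPM at Iw4. In luminal cells the 3 libraries together held only 13 reads at W10 and 16 at P3.5, at most 0.605 CPM in any of them. Folds against so few reads are imprecise and are understated by the pseudocount. *Bcl11b* was called higher in basal cells at W10 (4.59, SE 0.610, adjusted p = 3.12e-07), P3.5 (5.25), P14.5 (3.48), Iw4 (3.99) and M4 (4.43), and the call at P14.5 was lost without replicate 3 (3.28). It was not called at L3 (0.79), L10 (0.54, 95% interval -0.84 to 1.93) or Id2, where the cell types overlapped. At Id2 both were at or near the floor of 3 reads (14 reads in the 3 basal and 5 in the 3 luminal libraries), and no fold is given. The luminal libraries with the most *Bcl11b* were L10 replicate 5 (17.6 CPM), L3 replicate 5 (6.36 CPM) and L10 replicate 6 (4.06 CPM). The same luminal libraries held 1143, 507 and 310 CPM of *Krt5*, the 3 highest of the luminal libraries, and the part of basal RNA in these *Bcl11b* values was not tested.

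*Bcl11a* changed sides. In basal cells it was 23.1, 12.2 and 25.5 CPM at W10 and 23.8, 16.6 and 14.1 CPM at P3.5, above all luminal libraries of these time points. At L3 it was 0.963, 0 and 1.02 CPM, at L10 1.57 and 0.950 CPM and at Id2 0.156, 1.36 and 0.646 CPM in basal cells. The luminal libraries held 21.5, 13.3 and 15.8 CPM at L3, 8.78, 9.06 and 26.9 CPM at L10 and 4.35, 6.55 and 9.97 CPM at Id2, all above the basal ones. The log2 fold change was 1.50 at W10 (SE 0.474, adjusted p = 0.0172, and 0.00625 with the block) and was called below 0 at L3 (-3.47, adjusted p = 2.23e-07), L10 (-2.65) and Id2 (-2.21). Without replicate 6 of L10 or of Id2 the values there were -1.95 and -1.94 and were not called. At Iw4 (0.43) and M4 (-0.09) the cell types overlapped. The luminal mean was 25.5, 11.8 and 9.66 times the basal mean at L3, L10 and Id2. Basal reads were few there, so the pseudocount understates the log2 fold changes of *Bcl11a*.

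Changes over time were then tested within each cell type by a moderated F test over the 8 time points at a false discovery rate under 0.01. In luminal cells *Prom1*, *Procr*, *Tspan8* and *Ly6a* varied, 4 of the 10 genes, where 34.0% of all genes did. In basal cells all of the genes but *Prom1* and *Cd44* varied, 8 of the 10, where 44.5% of all genes did. The largest F was that of *Procr* in basal cells (25.3, adjusted p = 2.58e-10), followed by *Bcl11a* (21.2) and *Bcl11b* (16.6) there. *Bcl11b* in luminal cells missed the threshold (adjusted p = 0.0898), but edgeR called it (adjusted p = 0.000284), as did the fit without L10 replicate 4 (adjusted p = 0.00132). *Kit* in basal cells (adjusted p = 0.00413) missed it without W10 replicate 5, P3.5 replicate 6 or L10 replicate 6 (adjusted p = 0.0101, 0.0106 and 0.0102), and *Kit* in luminal cells passed it without L3 replicate 4 (adjusted p = 0.00773).

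Whether the time course differed between the cell types was tested by the interaction, which 13.4% of all genes passed. Of the 10 genes it was passed by *Bcl11a* (adjusted p = 7.63e-07), *Bcl11b* (adjusted p = 1.39e-05) and *Epcam* (adjusted p = 0.00106). With the sort as a block *Tspan8* (adjusted p = 0.0038) and *Cd24a* (adjusted p = 0.00997) passed too, 5 genes in all. *Tspan8* also passed without L10 replicate 4 (adjusted p = 0.00733) and *Cd24a* without W10 replicate 6, P14.5 replicate 3 or Id2 replicate 2 (adjusted p = 0.0086, 0.00943 and 0.00857). *Procr* did not pass (adjusted p = 0.172). Leaving out the 6 libraries of Id2 gave the same counts as with them: 8 genes over the mean of the time points, 4 over time in luminal cells, 8 in basal cells and 3 in the interaction. The share of all genes called without Id2 is not given here.

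A comparison of lactation (mean of L3 and L10) with never-pregnant glands (mean of W10 and M4) was added after the values had been seen, because several genes moved over more than 1 step. In basal cells 7 of the 10 genes were called, against 16.5% of all genes, and *Procr* rose while 6 genes fell. Of all genes 9.58% rose and 6.97% fell. *Procr* rose by a log2 fold change of 4.83 (SE 0.496, adjusted p = 1.09e-09). The genes that fell were *Bcl11a* (-3.04, SE 0.355, adjusted p = 1.80e-08), *Tspan8* (-2.71), *Bcl11b* (-2.63), *Epcam* (-2.32), *Kit* (-1.47) and *Cd24a* (-1.20). The median of the 10 genes was -1.33, against -0.05 over all genes. The call for *Kit* was lost in 9 of the 24 fits that left out 1 sort, with log2 fold changes of -1.64 to -1.26, and that for *Cd24a* without L10 replicate 6 (-0.99).

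In luminal cells 2 of the 10 genes were called in this comparison, where 13.2% of all genes were, 7.37% rising and 5.83% falling. edgeR called 3 of the 10 there and 15.4% of all genes, adding *Bcl11b* (3.02, adjusted p = 0.00147). *Procr* rose there as well, by 2.83 (SE 0.468, adjusted p = 1.19e-05), and *Prom1* fell by 2.30 (SE 0.446, adjusted p = 0.000115). The luminal lactation libraries with the most *Procr* were L10 replicate 5 (79.1 CPM), L3 replicate 5 (45.9 CPM) and L10 replicate 6 (19.8 CPM). They also held the most *Krt5* (1143, 507 and 310 CPM). L10 replicate 5 and L3 replicate 5 held the most of the endothelial genes *Cdh5* (119 and 155 CPM) and *Pecam1* (117 and 162 CPM) as well. L10 replicate 6 did not (32.0 and 19.4 CPM). Luminal Id2 libraries held 33.4, 51.1 and 27.7 CPM of *Procr* with *Krt5* at 3.56, 4.12 and 1.63 CPM. The part of basal or endothelial RNA in the luminal rise of *Procr* was not tested. *Epcam* was at 0.08 with a 95% interval of -0.55 to 0.71, and *Cd24a* at 0.17 with one of -0.36 to 0.70. The change in basal cells minus that in luminal cells was called for 4 genes, against 10.3% of all genes. It was -3.84 for *Bcl11b* (SE 0.629, adjusted p = 2.57e-05), -3.76 for *Bcl11a* (SE 0.488, adjusted p = 6.97e-07), -2.40 for *Epcam* (SE 0.453, adjusted p = 0.000172) and -1.37 for *Cd24a* (SE 0.381, adjusted p = 0.0089). The call for *Cd24a* was lost with a pseudocount of 0.1, with rescaled libraries, by edgeR (adjusted p = 0.0123) and in 14 of the 24 fits that left out 1 sort. For *Bcl11b* part of the difference lay in luminal cells, where its own change was 1.21 (adjusted p = 0.0279, not called by limma). The luminal lactation libraries with the most *Bcl11b* also had the most *Krt5*, as given above, 4 of the 5 basal marker genes rose in luminal cells at lactation, and the part of basal RNA in this difference was not tested. For *Procr* the difference was 2.00 (95% interval 0.62 to 3.38, adjusted p = 0.0343). The amplification batch and the lane differ between lactation and W10 and between lactation and M4 except for the lane of L3, so that batch and time point cannot be told apart in these changes, while luminal and basal cells of a sort share a batch.

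**Figure D3:**
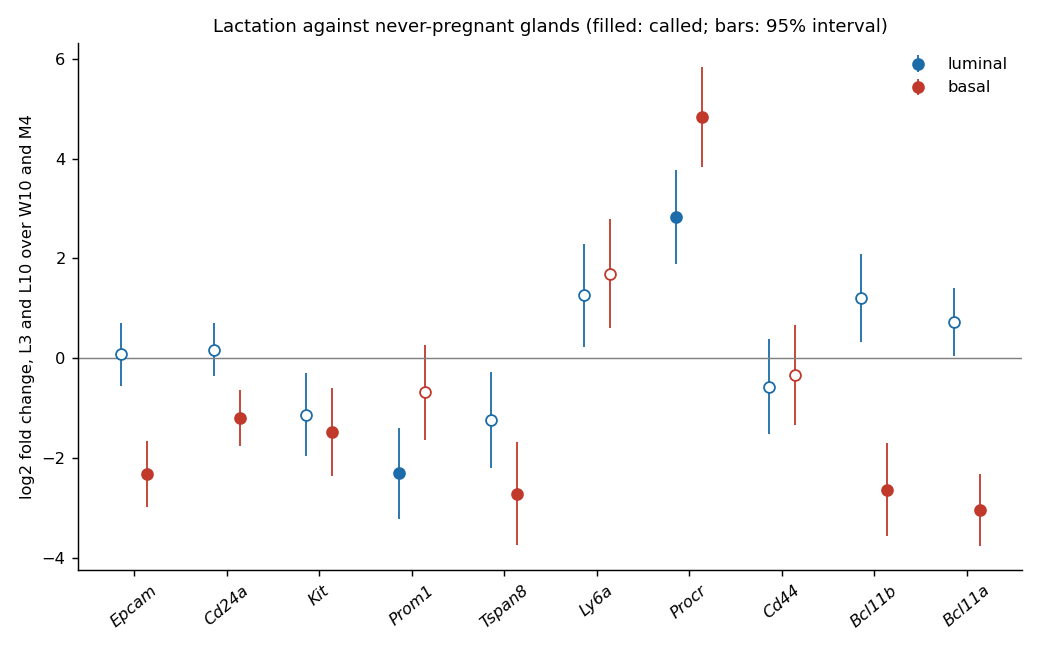
Log2 fold change of lactation (L3 and L10) over never-pregnant glands (W10 and M4) (y axis) for each gene (x axis) in luminal (blue) and basal (red) cells. Filled points were called and bars are 95% intervals from limma. *Procr* rose in both cell types, by 2.83 and 4.83, and *Bcl11b*, *Bcl11a*, *Epcam* and *Cd24a* fell in basal cells, with the difference from luminal cells called.

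Between successive time points in luminal cells 4 changes of a member were called. Of all genes 1.82% were called from W10 to P3.5, 1.52% from P3.5 to P14.5, 6.17% from P14.5 to L3, 0.381% from L3 to L10, 4.56% from L10 to Id2 and 10.5% from Id2 to Iw4, where 4.39% rose and 6.12% fell. *Prom1* fell between P3.5 (51.1, 60.7 and 53.1 CPM) and P14.5 (12.5, 4.42 and 7.76 CPM), by 2.69 on the log2 scale (SE 0.631, adjusted p = 0.00888). The groups did not overlap and shared an amplification batch, but the call was lost with a pseudocount of 0.1, by edgeR (adjusted p = 0.0138) and in 16 of the 24 fits that left out 1 sort. Between P3.5 and P14.5, 4 of 8 hormone-sensing luminal markers fell (median -1.79) and 2 of 4 milk protein genes rose (median 3.34). The part of these changes in the fall of *Prom1* was not tested. *Ly6a* rose from 30.4, 15.9 and 13.3 CPM at P14.5 to 289, 289 and 223 CPM at L3 (3.76, SE 0.715, adjusted p = 0.000378). It was 466, 1416 and 339 CPM at Id2 and 72.7, 116 and 19.9 CPM at Iw4, a log2 fold change of -3.43 (SE 0.715, adjusted p = 0.000569). That call was lost without Id2 replicate 4 (-2.82) or Iw4 replicate 6 (-2.71). *Procr* fell from 33.4, 51.1 and 27.7 CPM at Id2 to 2.45, 1.20 and 1.41 CPM at Iw4 in luminal cells (log2 fold change -3.82, SE 0.662, adjusted p = 5.76e-05). In the same step all 6 macrophage genes fell in luminal cells (median -2.73), from sums of 41.3, 112 and 175 CPM at Id2 to 10.1, 9.22 and 8.56 CPM at Iw4. Both lymphocyte genes in the table, 2 of the 5 pericyte and 1 of the 6 endothelial genes fell as well, and the endothelial sum went from 147, 234 and 71.0 CPM to 7.73, 14.7 and 9.07 CPM. The sort used CD45, CD11b and Ly-6G/Ly-6C to remove blood cells, and the part of these cell types in the falls of *Procr* and *Ly6a* was not tested. Of the successive steps, those from P3.5 to P14.5 and from L3 to L10 lay within an amplification batch, though on different lanes, and in the others batch, lane and time point cannot be told apart, in luminal and in basal cells.

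In basal cells 9 changes between successive time points were called, 6 of them from Id2 to Iw4. Of all genes 6.76% were called from W10 to P3.5, 3.64% from P3.5 to P14.5, 3.89% from P14.5 to L3 (2.20% rising and 1.69% falling), 1.14% from L3 to L10, 13.3% from L10 to Id2 and 17.4% from Id2 to Iw4 (8.14% rising and 9.27% falling). *Bcl11a* (-2.89, SE 0.530, adjusted p = 0.000519) and *Cd24a* (-1.67, adjusted p = 0.00735) fell from P14.5 to L3. Without basal P14.5 replicate 5 and its luminal partner *Cd24a* changed by -0.90 (-2.45 without P14.5 replicate 3) and was not called, as it was not in 9 of the 24 fits that left out 1 sort, and without replicate 3 of P14.5 *Bcl11a* was not called (-2.49). *Ly6a* rose from 114 and 34.6 CPM at L10 to 901, 300 and 367 CPM at Id2 (2.86, SE 0.799, adjusted p = 0.00773), a call that edgeR (adjusted p = 0.0247) and a pseudocount of 0.1 did not make. The value was 3.71 without L10 replicate 5, and the call was also lost without L10 replicate 6 (2.01), Id2 replicate 2 (2.38) or Id2 replicate 6 (3.02). From L10 to Id2 all 5 basal marker genes fell in basal cells (median -5.46), 2 of the 6 fibroblast genes rose (median 3.47), 2 of the 5 pericyte genes fell (median -1.38) and none of the 6 endothelial genes was called. The part of these changes in the rise of *Ly6a* was not tested.

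From Id2 to Iw4 *Bcl11b* (4.19, SE 0.610, adjusted p = 1.83e-06), *Tspan8* (3.41), *Bcl11a* (2.87) and *Epcam* (1.84) rose in basal cells. The size of the *Bcl11b* change depends on the pseudocount, since the 3 Id2 libraries held only 14 of its reads, and edgeR gave 5.42. *Procr* (-5.06, SE 0.662, adjusted p = 2.71e-07) and *Ly6a* (-4.43, SE 0.715, adjusted p = 1.01e-05) fell. Without Id2 replicate 6 the values were -5.88 for *Procr* and 2.63 for *Tspan8*, both called. The *Tspan8* libraries held 7.34, 4.26 and 0.323 CPM at Id2 and 31.9, 79.5 and 25.2 CPM at Iw4, without overlap. The call for *Epcam* was lost without Id2 replicate 6 (1.26), Iw4 replicate 3 (1.65) or Iw4 replicate 5 (1.69). In the same step 4 of the 5 basal marker genes rose, with a median of 5.61, and 5 of the 5 pericyte, 5 of the 6 endothelial and 4 of the 6 fibroblast genes fell. The part of a changed mix of cells in these results was not tested.

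Parous glands at Iw4 were compared with never-pregnant glands of similar age at M4. None of the 10 genes was called in either cell type, in limma or in edgeR, and none had an unadjusted p under 0.05, which 2.30% of all genes had in luminal and 1.89% in basal cells. Over all genes 0% were called in luminal and 0.00586% in basal cells. Log2 fold changes of the 10 genes were at most 0.64 in size in luminal cells, for *Prom1* (95% interval -0.64 to 1.92), and 0.42 in basal cells, for *Bcl11b* (95% interval -1.66 to 0.81). The intervals still allow changes of more than 2-fold for most of the genes. For *Procr* in basal cells, the log2 fold change was 0.16 with an interval of -1.19 to 1.50. Both time points were amplified in the same 3 batches, and a fit of these 12 libraries alone, with or without the batch, called none of the 10 genes.

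Ordered by mean level, few neighbouring time points were separate for any gene. In basal cells *Procr* ran from L10 (846 CPM) over Id2 (600), L3 (238) and P14.5 (82.5) to W10 (16.8), P3.5, Iw4 and M4 (11.8), and only the ranges of P14.5 and W10 did not overlap among the neighbours. In both cell types *Ly6a* was highest at Id2 (740 CPM in luminal and 523 CPM in basal cells) and its Id2 range lay apart from that of L3, the next in order. In luminal cells *Tspan8* was lowest at P14.5 (2.10 CPM), apart from L3 above it (13.5 CPM). *Kit* and *Cd44* had no separate neighbours in either cell type.

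Marker genes of other cell types moved with *Procr* in the basal libraries. PROCR and LY6A are known from blood vessels as well as from epithelium. The sort was meant to remove CD31+ endothelial and CD140a+ fibroblast cells and, by CD45, CD11b and Ly-6G/Ly-6C, blood cells. Pericyte genes (*Rgs5*, *Pdgfrb*, *Cspg4*, *Kcnj8*, *Notch3*) summed to 92.0, 106 and 118 CPM in basal W10 libraries, 1513, 3645 and 6868 CPM at L3, 8583 and 15270 CPM at L10 and 151, 273 and 351 CPM at Iw4. Their most abundant gene was *Rgs5*, with 5321 and 9895 CPM at L10. Endothelial genes (*Pecam1*, *Cdh5*, *Kdr*, *Cldn5*, *Tie1*, *Emcn*) summed to 64.6, 121 and 51.6 CPM at W10, 587, 558 and 880 CPM at L3, 777 and 398 CPM at L10 and 9018, 354 and 253 CPM at Id2. *Cdh5* was their most abundant gene at Id2, with 4160 CPM in replicate 2. In lactation against never-pregnant glands all 5 pericyte and all 6 endothelial genes rose in basal cells, with medians of 4.47 and 2.75, and 2 of the 6 fibroblast genes rose. In luminal cells the 6 endothelial genes and 2 of the 5 pericyte genes rose as well.

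The libraries did not rank alike for all lists. At Id2 replicate 2 held 9018 CPM of endothelial genes and *Procr* at 869 CPM, replicate 4 held 354 CPM of endothelial genes, 10460 CPM of pericyte genes and *Procr* at 782 CPM, and replicate 6 had 71670 CPM of fibroblast genes and *Procr* at 147 CPM. The pericyte gene *Rgs5* was at 2175, 6932 and 1442 CPM in basal Id2 replicates 2, 4 and 6. At P14.5, replicates 3 and 5 had similar pericyte sums (1213 and 1111 CPM) and *Procr* at 136 and 29.3 CPM. Endothelial and fibroblast genes were higher in basal replicate 3 than in replicate 5 there, as *Procr* was. The endothelial genes *Cdh5* and *Pecam1* were at 201 and 173 CPM in replicate 3 and at 142 and 101 CPM in replicate 5. The fibroblast genes *Col1a1* and *Pdgfra* were at 3507 and 214 CPM in replicate 3 and at 2329 and 136 CPM in replicate 5. No gene of the 3 lists was at 0 in any basal library of lactation or Id2. Macrophage genes stayed at 1.52 to 48.7 CPM in all basal libraries, and none of the 6 was called in basal cells at lactation. Of the adipocyte list 3 of 5 genes were in the table and all 3 rose in basal cells at lactation, with a sum of 12.6 to 39.4 CPM at W10, 480 to 931 CPM at L3 and 742 and 765 CPM at L10. Of the lymphocyte list 2 of 5 genes were in the table and *Cd3e* rose (2.96), of the 3 Schwann cell genes none was called in basal cells at lactation, and of the mast cell list 0 of 5 genes were in the table. The part of these cell types in the levels of *Procr*, *Ly6a* and *Cd44* was not tested.

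**Figure D4:**
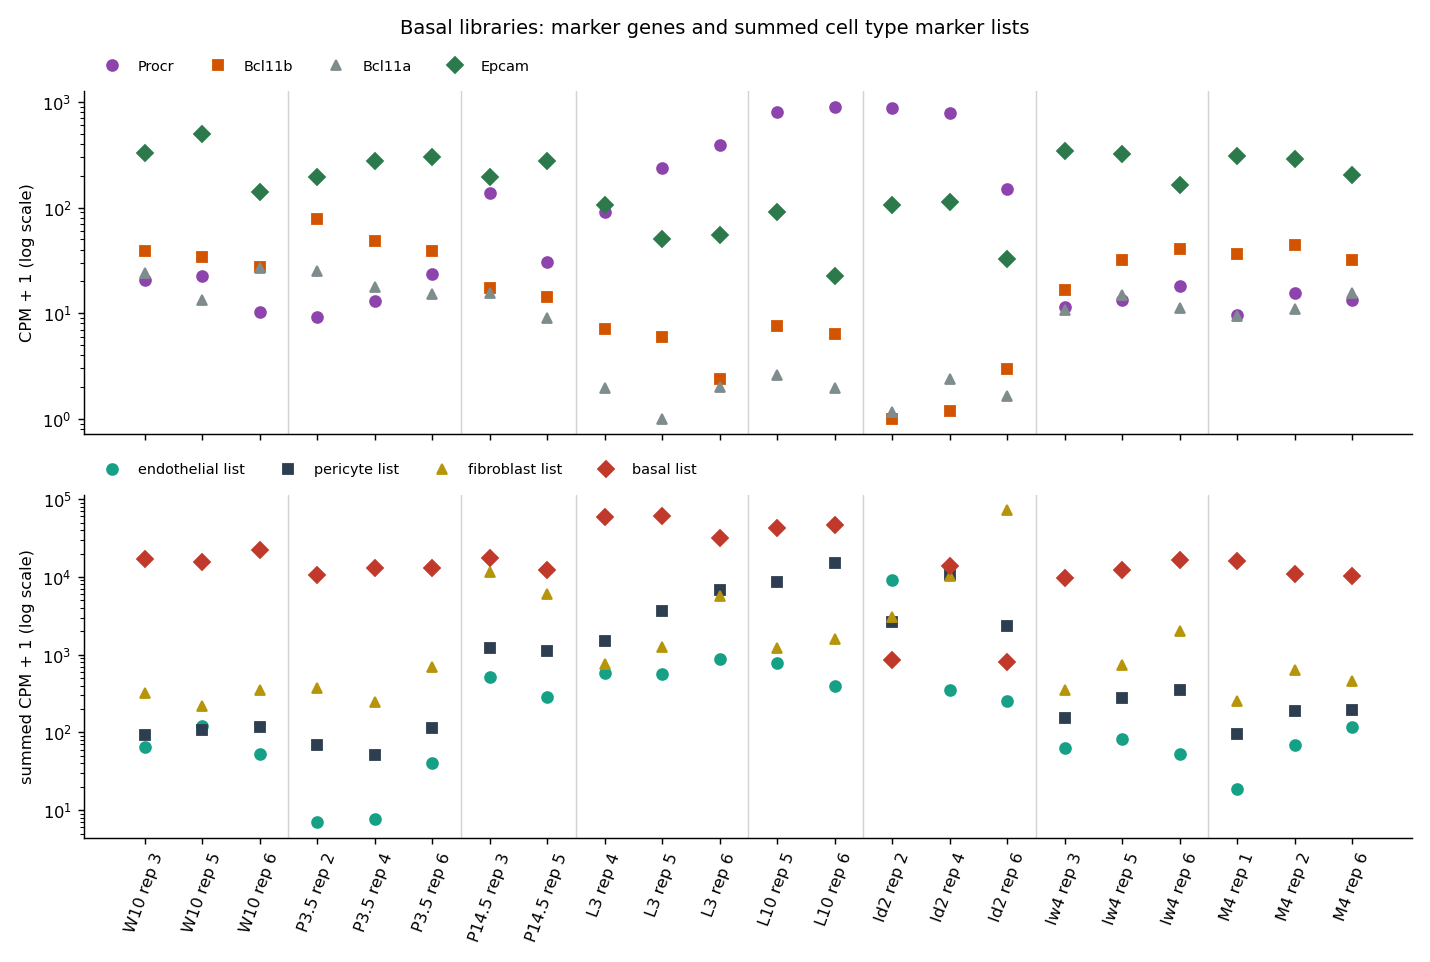
Basal libraries in order of time point (x axis). The upper panel gives *Procr*, *Bcl11b*, *Bcl11a* and *Epcam* as CPM + 1 and the lower panel the summed CPM + 1 of marker lists of endothelial cells, pericytes, fibroblasts and basal cells, both on log scales, with a point for each library. *Procr* and the pericyte sum were high from P14.5 to Id2, and the basal sum came down to 862 and 812 CPM in Id2 replicates 2 and 6.

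Ligands and partners of the surface proteins were described next, from a list of 11 genes of which 10 were in the table. Over the mean of the time points 5 were higher in basal cells, 4 lower and 1 not called, with a median log2 fold change of 1.02 against 0.02 over all genes. *Kitl*, the ligand of KIT, was higher in basal cells (1.89, adjusted p = 6.24e-14), the reverse of its receptor. *Has2* (4.02) and *Has1* (1.63), which make hyaluronan for CD44, were higher in basal cells, and *Spp1*, a CD44 ligand of milk and matrix, was lower (-4.25). *Thbd* (thrombomodulin, 2.04) and *F2r* (a thrombin receptor, 1.60), which act with PROCR, were higher in basal cells, and *Proc*, protein C itself, was lower (-1.22). *Cldn7*, a partner of EPCAM, was lower in basal cells (-3.61), as *Epcam* was. In lactation against never-pregnant glands *Kitl* fell in luminal (-1.88) and basal cells (-1.05), *Thbd* rose in both (3.16 and 3.39), and *Has2* (-2.92) and *Cldn7* (-1.72) fell in basal cells, while the other 6 genes were not called in either.

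Other markers of basal and stem cells gave 10 of 13 genes higher in basal cells over the mean of the time points, *Cd1d1* lower (-1.77) and 2 not called (*Itga6*, 0.67, and *Inpp5d*, 0.36). In lactation against never-pregnant glands 4 of the 13 fell in basal cells, which were *Lgr5* (-4.79, adjusted p = 9.87e-11) and *Lgr6* (-1.76), receptors that amplify Wnt signals, *Axin2*, a Wnt target (-1.31), and *Cd1d1* (-1.46). *Krt5* (0.64), *Krt14* (0.04) and *Trp63* (-0.42) were not called. *Thy1* rose (4.47), in a comparison in which all 5 pericyte genes (median 4.47) and all 6 endothelial genes (median 2.75) rose in basal cells. The part of these cell types in the basal rises of *Thy1*, of *Thbd* above and of *Notch1*, *Notch3* and *Ly6c1* below was not tested. In luminal cells *Krt5* (4.02), *Krt14* (3.72), *Trp63* (2.60) and *Thy1* (1.80) rose and *Lgr6* fell (-2.29). The median of the 13 genes in basal cells was -0.42.

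Of 9 luminal progenitor markers *Cd14* (-3.11), *Cd55* (-2.32), *Aldh1a3* (-2.71) and *Elf5* (-3.46) were lower in basal cells over the mean of the time points, *Itgb3* was higher (2.63) and 4 were not called. In basal cells *Aldh1a3* fell at lactation (-2.08) and *Notch1* (1.04) and *Notch3* (5.41) rose, *Notch3* being also on the pericyte list. In luminal cells *Itgb3* (-3.10) and *Itga2* (-2.16) fell and *Sox10* rose (1.29). Of 8 hormone-sensing markers 7 were lower in basal cells and *Pgr* was not called (-0.63). At lactation 4 of them fell in luminal cells (*Pgr*, -3.53, *Areg*, -2.97, *Foxa1*, -1.80, and *Tnfsf11*, -1.67) and 3 in basal cells (*Areg*, -2.71, *Prlr*, -2.55, and *Foxa1*, -2.46). Of 5 relatives of the members *Ly6e* (-1.16), *Ly6d* (-1.89) and *Tspan1* (-2.54) were lower in basal cells over the mean of the time points. At lactation *Ly6c1* rose (2.64) and *Prom2* fell (-1.60) in basal cells.

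The genes whose mean levels over the 16 conditions, 8 time points in each of 2 cell types, were most like those of each member were taken from 10580 genes with a mean of at least 5 CPM, by Pearson's r. The 16 points share libraries and cell type, so r is a description. *Procr* was most like *Adamts4* (r = 0.986), *Ebf3* (0.976) and *Parvb* (0.973). *Bcl11b* was most like *Wif1* (0.970), *Elovl4* (0.965) and *Ptprt* (0.965). *Epcam* (0.980) and *Cd24a* (0.975) shared *2610528J11Rik* among their 3 nearest genes. For *Epcam* it was followed by *Galnt3* (0.978) and *Tpd52* (0.973), and for *Cd24a* it came after *Stx3* (0.980) and *Mapkapk3* (0.977). *Kit* was most like *Sidt1* (0.984), *Cldn23* (0.979) and *Ocln* (0.979), *Prom1* most like *Samd5* (0.957), *Ttc6* (0.939) and *Gipc2* (0.934), and *Cd44* most like *Trim35* (0.955), *Pianp* (0.937) and *Mmp14* (0.935). *Ly6a* was most like *Lrg1* (0.957), *Shisa5* (0.948) and *B3gnt3* (0.947). *Tspan8* and *Bcl11a* had the lowest best values, with *Clip4* (0.873), *Bhlhe41* (0.862) and *Pof1b* (0.859) for *Tspan8* and *Acad9* (0.897), *Tarbp1* (0.866) and *Intu* (0.847) for *Bcl11a*.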

How the data were processed

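RNA-seq of 46 libraries was used, and the basal library of P14.5 replicate 2 is not analysed here. The authors amplified 5 ng of RNA per library, aligned reads with GSNAP (2012-07-20) to mm9, counted them per gene with HTSeq and scaled them with edgeR, after which genes with low counts and some with very many reads were left out. The deposited signal is CPM per gene. In each library 100% of the values came to whole reads within 0.01 reads, so reads were recovered. Of the gene identifiers 16897 were matched to symbols in the GRCm38 annotation and 181 were not. All sample columns were used.

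limma 3.58.1 in R 4.3.3 was fitted to log2(CPM + 1) with 16 condition means over all libraries, moderated with a trend, and p-values were adjusted by Benjamini-Hochberg over all 17078 genes. A fold change of at least 2 with a false discovery rate under 0.01 was called. Since conditions have 2 or 3 libraries, they share 1 estimate of the spread, and p-values measure the spread between pooled sorts. Deviations from condition means were positively correlated in 21 of 22 luminal and basal pairs of a sort (median 0.31 over 10580 genes). The correlation was over 0.1 in 17 of the 22 pairs. Libraries of a pair come from the same mice, so a model with the sort as a block was fitted beside the main one (consensus correlation 0.179). edgeR 4.0.16 (quasi-likelihood) was run on the recovered reads. Other alternatives were a pseudocount of 0.1, median-ratio scaling, a mean of at least 5 CPM, a false discovery rate of 0.05, and leaving out Id2 or each sort in turn. The 10 genes and the lists were chosen with earlier results of these data known. The value of 1 listed gene is not reported here. Genes named are these 10, the listed markers and the 3 genes most like each of the 10. Promoter sequences and the search for shared stretches use RefSeq and GENCODE on GRCm38, which was not mixed with the coordinates of mm9.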

Additional observations from a re-analysis of the deposited data

Results flagged for a closer look

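The time course differed between luminal and basal cells, by the interaction of time point and cell type, for *Bcl11a* (adjusted p = 7.63e-07), *Bcl11b* (adjusted p = 1.39e-05) and *Epcam* (adjusted p = 0.00106), all in limma. In basal cells all of these genes were lowest at lactation or Id2. In a comparison added after the values had been seen, the change from never-pregnant glands to lactation was more negative in basal than in luminal cells for *Bcl11a* (-3.76, adjusted p = 6.97e-07), *Bcl11b* (-3.84, adjusted p = 2.57e-05), *Epcam* (-2.40, adjusted p = 0.000172) and *Cd24a* (-1.37, adjusted p = 0.0089). The call for *Cd24a* was lost by edgeR (adjusted p = 0.0123), with a pseudocount of 0.1, with rescaled libraries and in 14 of the 24 fits that left out 1 sort. Basal and luminal cells of a sort shared their mice, amplification batch and lane. The part of a changed mix of cells in the basal libraries, and of basal RNA in the luminal lactation libraries, was not tested. Those with the most *Bcl11b* (17.6, 6.36 and 4.06 CPM) also held the most *Krt5* (1143, 507 and 310 CPM).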

How the results depend on the processing

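No called change of a single gene turned its direction under the alternatives. Among values that were not called, that of *Bcl11a* between the cell types at P14.5 went from -0.26 to 0.18 without P14.5 replicate 5. With the sort as a replicate block 5 of the 10 genes passed the interaction test instead of 3, and at a false discovery rate of 0.05 also 5. edgeR on the recovered reads and a pseudocount of 0.1 each called 10 genes over the mean of the time points instead of 8, and of all genes they called 28.5% and 30.3% instead of 21.0%. The false discovery rate of 0.05 gave 9 called changes between successive time points in luminal cells instead of 4, 17 in basal cells instead of 9, and 5 genes called in luminal lactation against never-pregnant glands instead of 2. The share of all genes called at that rate is not given here. These counts, and the 5 genes of the interaction at 0.05, are therefore not set against a background. Calls that the block changed at single time points are given beside their results. When each of the 24 sorts was left out in turn, the counts of called genes ranged from 8 to 9 over the mean of the time points, from 35 to 44 of the 80 single comparisons, from 4 to 5 over time in luminal cells and from 7 to 8 in basal cells. They ranged from 3 to 4 in the interaction, from 3 to 5 and from 8 to 10 for successive time points in luminal and basal cells, from 2 to 3 and from 6 to 8 for lactation in luminal and basal cells, from 3 to 4 for its difference, and stayed at 0 for Iw4 against M4. The share of all genes called in these fits is not given here, so the ranges are not set against a background. Of 104 results for single genes, 37 changed their side of the threshold in at least 1 of these fits. Of 74 called fold changes of single genes, 17 moved by over 1.5 times in at least 1 of them. A time point then rests on 1 or 2 libraries, whose spread is assumed to be like that of the others. *Bcl11a* rested on 0 to 18 reads in each basal library of lactation, where only large differences can be measured and the pseudocount understates folds.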
